A study of Mus musculus with 4 samples.

Results

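Translation initiation and elongation factors were followed in B16-F10 cells, a mouse melanoma line, by taking every gene probe whose gene name in the array files begins with Eif1 to Eif6 or with Eef1 or Eef2. Names beginning with Eif2ak, which belong to kinases, were left out. This gave 55 gene names on 127 probes, of 27962 names and 41174 gene probes on the array. Members were selected on their names, but the family itself was chosen by the low antibody-over-IgG ratios of Eif5a and Eef2 on these same arrays. Their ratios are therefore given as a description with no test, and the calls of the other members describe them and support nothing further.

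Cells were grown in DMEM with serum and treated in vitro for 2 h. One culture of each pair received a goat polyclonal antibody against mouse TIM3 (called an agonist in the design text and in the label of replicate 1), an inhibitory surface receptor best known from T cells, and the other received unspecific goat IgG. The labels give 15 ug/ml for the IgG on all 4 arrays and for the antibody on 3, with no antibody dose repeated for replicate 3. Each of the 4 arrays paired both treatments of 1 passage (14, 16, 18 and 19 for replicates 1 to 4), so the replicates are passages of 1 line and the spread between them is that of 1 line. Antibody RNA was always labelled with Cy5 and IgG RNA always with Cy3, so the effect of the antibody and that of the dye cannot be told apart in any ratio below. A log2 ratio above 0 means more signal after the TIM3 antibody. In such bulk RNA, fewer cells with a transcript and less of it per cell cannot be told apart. The line was checked against markers: all 7 melanocyte genes tested (Tyr, Tyrp1, Dct, Pmel, Mlana, Mitf and Sox10) exceeded background clearly on every array with either dye. By their brightest probe 5 of them passed the test described below as higher and 0 as lower (1 and 0 in the scanner software's own ratios), beside 14.8% and 12.8% of all genes. Tyrp1, Dct, Pmel and Mlana lay at mean log2 intensities of 16.48 to 16.81, and over 16 as many as 89.6% of all tested probes passed as higher. On second probes Dct (0.62) and Mitf (0.15) passed as higher and Sox10 (-0.30) as lower. Of the leukocyte markers, Itgam had no array well above background and Ptprc was too dim to test, while Cd3e and Cd68 were tested at mean log2 intensities of 7.51 and 7.60. Pecam1 and Cdh5 (endothelium) and Epcam (epithelium) were too dim to test, whereas the keratinocyte genes Krt14 and Krt5 were tested at 7.82 and 7.25 and did not pass. The fibroblast genes Col1a1, Col1a2 and Pdgfra were tested at 6.88 to 11.92, and Col1a1 passed as higher, at 0.13. The part of these other cell types in the ratios below was not tested. In Cy3 the scanner software called 21162 to 22112 gene probes well above background, and in Cy5 25739 to 28424.

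Protein synthesis begins when eIF2 brings the initiator tRNA to the small ribosomal subunit, where eIF1, eIF1A, eIF3 and eIF5 help to find the start codon. The mRNA arrives through eIF4F, made of the cap-binding protein eIF4E, the scaffold eIF4G and the helicase eIF4A, and the 4E-BPs hold eIF4E back. During elongation eEF1A delivers aminoacyl-tRNAs, the eEF1B subunits recharge it with GTP, eEF2 moves the ribosome along and eIF5A helps at stretches that are slow to join. In tumour cells eIF4F and the eIF2 step are known points where growth and stress signals control protein output.

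Most of these genes had several probes, and the results below turn on how probes of 1 gene differed. The 10 tested probes of the 4 genes with the lowest ratios of the family are therefore printed here as the array files give them. They are written 5′ to 3′ in order along each transcript, with the placement and strand that the files give on build mm7. For probes placed near the 3′ end the last 30 bases of the 60 are shown. Spans longer than 60 bases are probes that the files place across a gap in the genome.
Eif5a, 5′ side, chr11:69999525-69999584, minus strand: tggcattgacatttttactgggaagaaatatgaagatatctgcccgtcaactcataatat
Eif5a, 3′ side, chr11:69998801-69998860, minus strand, last 30 bases: actcctattcaaatttatttgacgttttat
Eef2, 5′ side, chr10:80969687-80969746, plus strand: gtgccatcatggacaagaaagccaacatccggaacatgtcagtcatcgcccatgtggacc
Eef2, middle, chr10:80972062-80972196, plus strand: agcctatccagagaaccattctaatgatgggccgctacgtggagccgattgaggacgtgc
Eef2, 3′ side, chr10:80973051-80973110, plus strand: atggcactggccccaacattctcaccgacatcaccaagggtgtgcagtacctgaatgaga
Eif4a1, 5′ side, chr11:69750105-69750259, minus strand: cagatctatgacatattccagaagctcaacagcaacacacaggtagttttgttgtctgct
Eif4a1, middle, chr11:69748672-69748731, minus strand, last 30 bases: aaacaaggctggcctcatttgctggaccaa
Eif4a1, 3′ side, chr11:69748517-69748576, minus strand, last 30 bases: acacaaaattctgAATAAAattacttggaa
Eif4g1, 5′ side, chr16:20225804-20227719, plus strand: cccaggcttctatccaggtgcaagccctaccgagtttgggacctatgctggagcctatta
Eif4g1, 3′ side, chr16:20239326-20242299, plus strand: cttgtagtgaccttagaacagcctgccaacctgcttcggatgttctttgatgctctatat
Capitals mark AATAAA, the usual polyadenylation hexamer, searched for on the printed strand. It stood in 6 of the 127 probes of the family (4.72%) and in 1967 of all 41174 gene probes (4.78%). The G and C content of the printed probes ran from 23.3% (Eif4a1, 3′ side) to 55% (Eef2, middle, and Eif4g1, 5′ side).

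A probe was tested where Cy3 or Cy5 stood well above background on 3 or 4 arrays, and it passed at a Benjamini-Hochberg adjusted p below 0.05 in limma, adjusted over all 26567 tested probes. Of the 127 probes of the family, 112 probes of 52 genes were tested. Among them 21 passed as higher, 28 as lower and 63 did not pass. Over all tested probes 14.2% passed as higher and 13.6% as lower, and nothing is read from the family's counts against these. With each gene represented by its brightest tested probe, 10 genes passed as higher, 9 as lower and 33 did not pass, where 14.8% and 12.8% of all 17965 genes passed as higher and lower. The counts of lower probes include 2 of Eif5a and 2 of Eef2, and the lower genes include Eif5a. The low ratios of these genes chose the family, so their part in the counts is no support. The median log2 ratio was -0.012 over the family's probes and 0.0060 over all tested probes. Over genes it was 0.035 for the family and 0.0098 for all genes.

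The changes were small. The median size of a called ratio was 0.19 on the log2 scale, and 2 probes reached 1.5-fold, 1 for Eif5a and 1 for Eef2. All 4 arrays had the same sign for 65 of the 112 probes (58.0%), against 47.8% of all tested probes. Across the 112 probes the arrays' ratios correlated at 0.647 to 0.88, with replicates 1 and 4 most alike and replicates 1 and 3 least. Over all tested probes these pairs gave 0.707 and 0.524, and the most alike were replicates 2 and 3, at 0.746 (0.83 in the family). These correlations are across probes, which are not independent replicates. No spot of the family was saturated or left out.

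**Figure D1:**
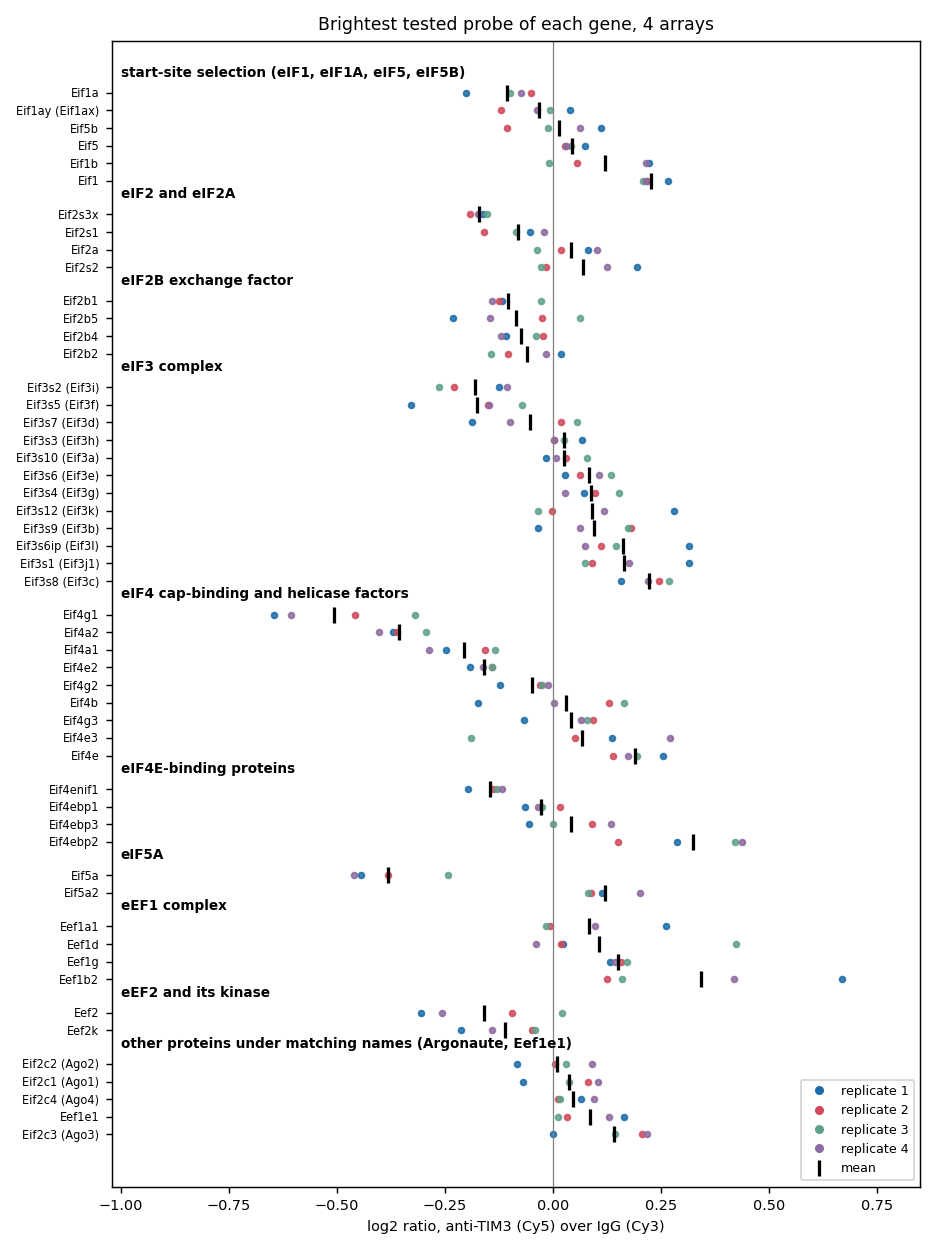
Log2 ratio (anti-TIM3 over IgG) of the brightest tested probe of each of the 52 tested genes, ordered by role, with 1 point for each of the 4 arrays and a black bar for their mean. Eif4g1, Eif5a and Eif4a2 lie lowest and Eef1b2 and Eif4ebp2 highest, while most genes straddle or lie close to 0. On median centring alone the means of Eif5a and Eif4a2 turn positive, at 0.15 and 0.088, where the median of all probes is itself 0.15.

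Direction depended in part on how the channels were put on 1 scale, so 3 other scalings stand beside the ratios. The deposited log ratio of the scanner software, on the log2 scale, gave 10 of the family's probes as higher and 18 as lower, beside 10.8% and 8.98% of all tested probes. Subtracting from each array the median ratio of probes of like brightness gave 17 higher and 34 lower, beside 14.1% and 14.7% of all. Centring each array on its median with no loess moved the median of all tested probes to 0.15 and that of the family's probes to 0.33. No probe of the array passed there, with 17 of the family's probes higher and 0 lower at an unadjusted p below 0.05. In what follows these are called the deposited, brightness-centred and median-centred ratios. A median-centred ratio stands beside that median of 0.15 and not beside 0. Among probes picked for lying near 0 after loess, Krt14 (mean log2 intensity 7.82) stood at 0.11, Tufm (13.79) at 0.45 and Mknk2 (15.16) at 0.64 when median-centred. Because of that choice they show how the scales differ with brightness and not which is right. Whether a positive median-centred ratio of a bright probe is a rise or a dye effect cannot be told apart, and it was not tested.

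Eif5a, the hypusine-carrying factor that helps ribosomes through difficult stretches, had the lowest ratio of the family. On its 5′ probe the log2 IgG signal was 13.96, 13.36, 13.46 and 13.44 on replicates 1 to 4, and the TIM3 antibody signal was 13.09, 12.77, 13.02 and 12.71. The log2 ratios were -0.88, -0.59, -0.44 and -0.73. The antibody channel was lower on every array, and the signals of both groups did not overlap. The mean ratio was -0.66 ± 0.19 (SD, n = 4), a 1.58-fold fall. The 3′ probe had log2 ratios of -0.44, -0.38, -0.24 and -0.46, again all negative but smaller on each array, with a mean of -0.38 ± 0.099 (SD, n = 4). Its IgG signals of 14.47 to 14.96 and antibody signals of 14.01 to 14.52 overlapped between passages though not within any array. The deposited ratios were -0.66 and -0.42, whereas the median-centred ratios were -0.24 for the 5′ probe and turned positive, at 0.15, for the 3′ probe.

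Eif5a2, the second eIF5A gene, ran the other way. Its brightest probe had log2 ratios of 0.11, 0.088, 0.081 and 0.20 and its 3′ probe 0.025, 0.22, 0.18 and 0.24, all positive. The means were 0.12 ± 0.056 and 0.17 ± 0.098 (SD, n = 4), and both probes passed as higher in limma, with the deposited, brightness-centred and median-centred ratios positive too. Both passed when brightness-centred, but neither passed in the deposited ratios. The brightest probe did not pass when any 1 of the 4 replicates was left out, with means of 0.094 to 0.13. The difference between both eIF5A genes was not tested. Of the 9 enzymes that make hypusine on eIF5A or diphthamide on eEF2, 2 passed as higher by their brightest probe (Dph7 at 0.12 and Dnajc24 at 0.11, both of the diphthamide route and neither passing in the deposited ratios) and 0 as lower in limma, beside 14.8% and 12.8% of all genes. By their brightest probe 0 were lower at an unadjusted p below 0.05 too. A dim second probe of Dph1, an enzyme of the diphthamide route, passed as lower, at -0.15. Dhps and Dohh, which make hypusine, did not pass, at -0.069 and -0.017.

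Eef2, the translocase that moves the ribosome 1 codon at a time, had 3 probes with unlike ratios. The middle probe had log2 IgG signals of 13.80, 13.14, 13.05 and 13.06 and antibody signals of 12.97, 12.70, 12.68 and 12.28. Its ratios were -0.82, -0.43, -0.37 and -0.78, negative on all arrays and lowest on replicates 1 and 4, and the groups did not overlap. The mean was -0.60 ± 0.23 (SD, n = 4), a 1.52-fold fall. The 5′ probe had ratios of -0.43, -0.24, -0.20 and -0.29, also all negative, with a mean of -0.29 ± 0.097. The brightest probe, nearest the 3′ end, had -0.30, -0.094, 0.021 and -0.26, so that replicate 3 stood slightly above 0, and its mean was -0.16 ± 0.15. Without replicate 3 that mean was -0.22. The median-centred ratios were -0.11 and -0.20 for the 5′ and middle probes but 0.33 for the 3′ probe, while the deposited ratios were negative for all 3 probes.

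Eef2k, the kinase that phosphorylates and halts eEF2, did not pass on either tested probe. Its brightest probe had ratios of -0.21, -0.048, -0.042 and -0.14, all negative and closest to 0 on replicates 2 and 3. The mean was -0.11 ± 0.082 (SD, n = 4) and the 95% interval from limma ran from -0.20 to -0.020. The other tested probe, on the 3′ side, averaged -0.037 ± 0.097, with replicate 4 above 0.

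**Figure D2:**
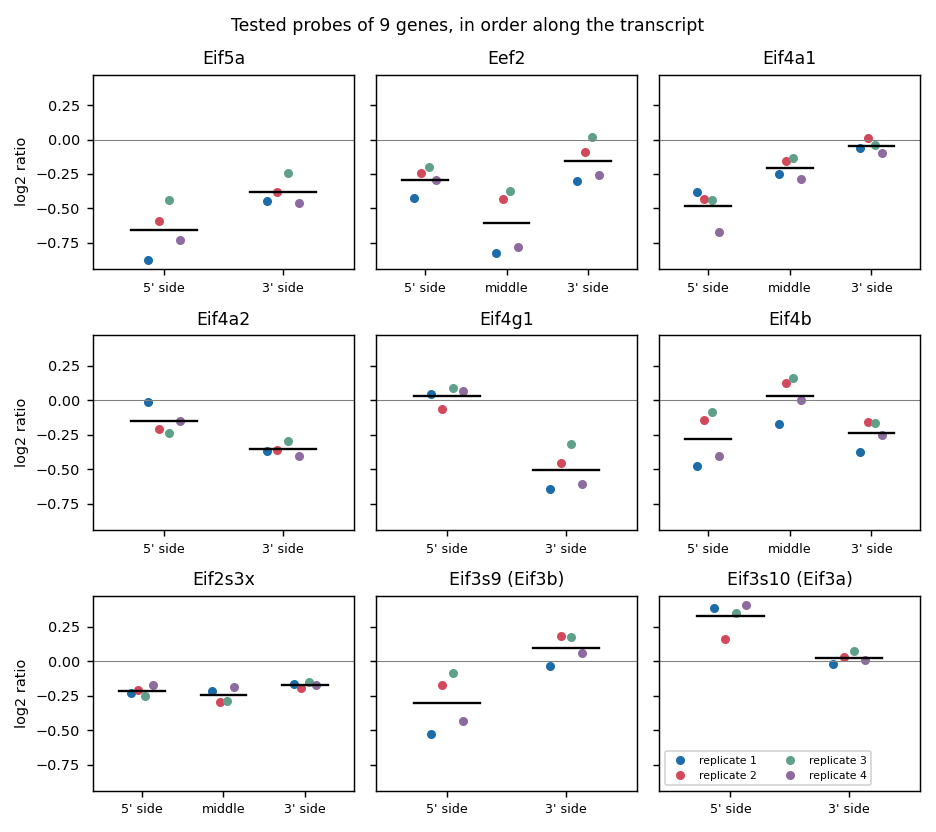
Log2 ratio (anti-TIM3 over IgG) of every tested probe of 9 genes, ordered from the 5′ to the 3′ side of the transcript, with 1 point per array and a bar at the mean. The 2 Eif5a and 3 Eif2s3x probes lie below 0 on every array, whereas Eif4a1 climbs from -0.48 to -0.046 and Eif4g1 falls from 0.035 to -0.51. After median centring alone the 3′ probe of Eif5a, the middle and 3′ probes of Eif4a1 and all 3 Eif2s3x probes turn positive.

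The eIF4 group binds the cap and unwinds the mRNA. Of its 9 genes 4 passed as lower by their brightest probe (Eif4g1, Eif4a2, Eif4a1 and Eif4e2) and 1 as higher (Eif4e), and of its 24 tested probes 10 passed as lower and 1 as higher, beside 13.6% and 14.2% of all tested probes, from which nothing is read. In the deposited ratios 7 of the 24 passed as lower and 1 as higher, and brightness-centred 9 and 1. Over all tested probes the lower and higher shares were 8.98% and 10.8% deposited, and 14.7% and 14.1% brightness-centred. The median over its probes was -0.099, with 12 of 24 probes of 1 sign on all arrays.

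Eif4g1, the scaffold that links the cap-binding protein to the helicase and to eIF3, was lowest by its brightest probe. That probe, on the 3′ side, had log2 IgG signals of 13.28, 12.84, 12.76 and 12.69 and antibody signals of 12.63, 12.38, 12.44 and 12.08. Its ratios were -0.65, -0.46, -0.32 and -0.61, all negative, and the groups did not overlap. The mean was -0.51 ± 0.15 (SD, n = 4), a 1.42-fold fall that passed, and it stayed negative in the deposited (-0.54), brightness-centred (-0.49) and median-centred (-0.13) ratios. The 5′ probe averaged 0.035 ± 0.069, with replicate 2 below 0, and did not pass. At a mean log2 intensity of 7.73 this probe was near the dim end of those tested. Both probes are printed above, and the files place each across a gap of the genome.

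Eif4a1, the main eIF4A helicase, changed stepwise along its 3 probes. The 5′ probe had log2 IgG signals of 13.57 to 13.82 and antibody signals of 13.00 to 13.44, which did not overlap. Its ratios were -0.38, -0.43, -0.44 and -0.67, with replicate 4 lowest, and the mean of -0.48 ± 0.13 (SD, n = 4) passed as lower. The middle probe had -0.25, -0.16, -0.13 and -0.29, and its mean of -0.21 ± 0.072 passed as well. The 3′ probe, which holds the hexamer, had -0.060, 0.011, -0.036 and -0.10 and did not pass, with a mean of -0.046 ± 0.047 and a 95% interval from -0.13 to 0.033. The order was the same in brightness-centred ratios (-0.45, -0.30 and -0.012) and in deposited ones (-0.43, -0.34 and -0.062), whereas the median-centred ratios were -0.042, 0.41 and 0.41.

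Eif4a2, the second eIF4A gene, passed as lower on both probes. The 3′ probe had log2 IgG signals of 14.11, 13.70, 13.52 and 13.34 and antibody signals of 13.74, 13.34, 13.23 and 12.94. The ratios were -0.37, -0.36, -0.29 and -0.40, closely grouped, although the signals overlapped between passages. The mean was -0.36 ± 0.046 (SD, n = 4), a 1.28-fold fall. On the 5′ probe the ratios were -0.015, -0.21, -0.23 and -0.15, with replicate 1 near 0 and a mean of -0.15 ± 0.097. Both means turned positive on median centring alone, at 0.088 and 0.16.

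Eif4e, the cap-binding subunit, passed as higher on its brightest probe only. The ratios there were 0.26, 0.14, 0.19 and 0.17, all positive, from IgG signals of 13.52 to 14.18 and antibody signals of 13.71 to 14.43 that overlapped between passages. The mean was 0.19 ± 0.049 (SD, n = 4), a 1.14-fold rise. The probe on its 3′ side averaged -0.081 ± 0.13, negative on 3 arrays and positive on replicate 1, and the dim 5′ probe -0.042 ± 0.11. Neither passed. As the mean of its 3 probes Eif4e stood at 0.023 and did not pass.

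The remaining eIF4 members split by probe as well. Eif4b, which stimulates the helicase, passed as lower on its 5′ and 3′ probes, at -0.28 ± 0.19 and -0.24 ± 0.10, while its brightest, middle probe had -0.17, 0.13, 0.16 and 0.0026 and did not pass. After median centring its 3′ probe turned positive, at 0.086. Eif4e2, a cap-binding relative that does not support eIF4F assembly, passed as lower on the 2 probes toward its 5′ end (-0.17 and -0.16) and did not pass on the 2 toward its 3′ end (-0.025 and 0.031), and all 4 were positive when median-centred. Eif4g3, a second eIF4G scaffold, passed as lower on 1 probe (-0.15, turning to 0.20 when median-centred) and not on the brighter 1 (0.042). Eif4g2, an eIF4G relative that does not bind eIF4E, did not pass on any of its 3 probes under that name, at -0.048 to -0.15. A probe of the same gene that the files call E130105L11Rik, and so no member, passed as lower at -0.15 ± 0.12 (SD, n = 4), though not in the deposited (-0.13) or brightness-centred (-0.12) ratios, and stood at 0.28 when median-centred. Eif4e3 did not pass, at 0.025 and 0.068.

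Among the eIF4E-binding proteins, Eif4ebp2 had 1 probe and passed as higher. Its log2 IgG signals were 11.84, 11.76, 11.39 and 11.10 and its antibody signals 12.12, 11.91, 11.81 and 11.54. The ratios were 0.29, 0.15, 0.42 and 0.44, all positive and lowest on replicate 2, although the signals overlapped between passages. The mean was 0.32 ± 0.13 (SD, n = 4), a 1.25-fold rise, and it was positive in the deposited (0.38), brightness-centred (0.33) and median-centred (0.64) ratios. Eif4ebp1, the 4E-BP best known as an mTORC1 substrate, did not pass on its brightest probe, which had -0.064, 0.015, -0.025 and -0.034. Its 3′ probe had 0.14, 0.11, 0.17 and 0.19, all positive, and passed as higher at 0.15 ± 0.036 (SD, n = 4). Eif4ebp3 did not pass (0.042 and -0.012). Eif4enif1, which carries eIF4E into the nucleus, passed as lower on the brightest of 3 probes, at -0.15 ± 0.035, turning to 0.16 when median-centred.

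A list of 18 genes that regulate these factors, covering mTORC1, the MNK kinases and the poly(A)-binding proteins, was all measured. By their brightest probe 4 genes passed as higher and 2 as lower, beside 14.8% and 12.8% of all genes. In the deposited ratios 1 passed as higher and 0 as lower (10.8% and 8.98% of all tested probes), and brightness-centred 3 and 2 (14.1% and 14.7% of all tested probes). The median was -0.020 beside 0.0098 for all genes. Rps6, a ribosomal protein and S6 kinase target, stood at 0.40 and Pabpc1, the main poly(A)-binding protein, at 0.24, both on bright probes whose deposited ratios were 0.14 and 0.081. Mknk1, which phosphorylates eIF4E, stood at 0.18 and at 0.20 in the deposited ratios, where it passed too. The kinase Akt1 passed in both directions, with 0.14 on its brightest probe (0.042 deposited) and -0.28 on a dim one (-0.41 deposited). Lower were Mlst8 (-0.14), an mTOR complex subunit, and Pabpc4 (-0.12), which stood at 0.19 and 0.26 when median-centred. Mtor and Rptor themselves did not pass by their brightest probe, at -0.061 and 0.017. A dimmer second Mtor probe passed as higher, at 0.35, and passed in the deposited (0.37) and brightness-centred (0.34) ratios too.

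Of the 4 tested genes for eIF2 and eIF2A, 1 passed as lower by its brightest probe, beside 12.8% of all genes. It was Eif2s3x, the X-linked gene of the GTP-binding gamma subunit. Its 3 tested probes all passed. From the 5′ side the first had ratios of -0.23, -0.21, -0.26 and -0.17, the second -0.22, -0.30, -0.29 and -0.19, and the third and brightest -0.16, -0.19, -0.15 and -0.17. The 12 values were all negative, and the means were -0.22 ± 0.034, -0.25 ± 0.054 and -0.17 ± 0.017 (SD, n = 4 each). The deposited means were also negative (-0.21, -0.28 and -0.17), but the median-centred ones were 0.076, 0.058 and 0.21. Eif2s3y, its Y-linked counterpart, had 1 probe that was not well above background on any array.

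Eif2s1, the alpha subunit whose phosphorylation slows initiation, did not pass on either probe. The brightest had -0.053, -0.16, -0.086 and -0.021, all negative, with a mean of -0.080 ± 0.059 (SD, n = 4) and a 95% interval from -0.16 to 0.0025. Eif2s2, the beta subunit, did not pass on any of 3 probes, at -0.075 to 0.069. Eif2a, which can deliver an initiator tRNA apart from eIF2, did not pass on its brightest probe (0.042) and passed as lower on a dim 3′ probe (-0.11). Of the 8 eIF2 alpha kinases, phosphatase subunits and partners, 0 passed as higher and 1 as lower by their brightest probe, beside 14.8% and 12.8% of all genes. The lower 1 was Ppp1r15a, a phosphatase subunit, at -0.24. At an unadjusted p below 0.05 in limma 2 were higher and 1 lower, with the highest means in Eif2ak2 (0.13) and Eif2ak1 (0.10). A second probe of Gcn1, from the same list, passed as lower, at -0.21.

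The eIF2B genes, whose product reloads eIF2 with GTP, all had negative means by their brightest probe. In limma 0 of the 4 tested genes passed (0 higher and 1 lower at an unadjusted p below 0.05), with means of -0.061 (Eif2b2), -0.073 (Eif2b4), -0.085 (Eif2b5) and -0.10 (Eif2b1), where median-centred means were 0.20 to 0.53. Eif2b2, a regulatory subunit, did pass as lower in the deposited (-0.18) and brightness-centred (-0.16) ratios. Eif2b5, the catalytic subunit, had -0.23, -0.026, 0.063 and -0.15, so that its arrays did not share a sign. A second, dimmer Eif2b4 probe passed as lower at -0.16. Eif2b3 had 1 probe, not well above background on any array.

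Of the 6 genes for start-site selection, 1 passed as higher by its brightest probe, beside 14.8% of all genes. It was Eif1, the factor that keeps the scanning ribosome open. The files hold 2 probes under that name. The probe that they place on chromosome 11, where RefSeq (GRCm38.p6) has the gene, had ratios of 0.27, 0.22, 0.21 and 0.21, with a mean of 0.23 ± 0.027 (SD, n = 4) at a mean log2 intensity of 16.40. It was negative in the deposited (-0.030) and brightness-centred (-0.10) ratios, passing as lower in the latter, and 0.93 when median-centred. The other, which they place on chromosome 1, had -0.12, -0.28, -0.21 and -0.095 and passed as lower, at -0.17 ± 0.084, turning to 0.21 when median-centred. Eif1 was the 1 name of the family with probes that passed in both directions.

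The other start-site factors did not pass by their brightest probe, while single dimmer probes did. Eif5, which makes eIF2 hydrolyse its GTP, had closely grouped ratios of -0.20, -0.21, -0.23 and -0.19 on its 3′ probe, which passed as lower at -0.21 ± 0.018 (SD, n = 4). Its brightest probe, on the 5′ side, averaged 0.044 ± 0.021 and the middle probe -0.0053 ± 0.18. Eif5b, which joins the ribosomal subunits, passed as higher on 1 of 5 probes, at 0.19 ± 0.15, with the other 4 between -0.11 and 0.041. Eif1a and Eif1ay (now Eif1ax), genes of the eIF1A protein, passed as lower on dimmer probes (-0.15 and -0.14 for Eif1a, -0.17 for Eif1ay) and not on their brightest, at -0.11 and -0.031. The files place the Eif1a probe at -0.14 on another chromosome than the RefSeq gene. All of these eIF1A ratios were positive when median-centred. Eif1b, a close relative of Eif1, did not pass, at 0.12.

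The eIF3 complex, the largest initiation factor and a platform on the small subunit, had members that passed in both directions. Of its 12 genes 3 passed as higher (Eif3s8, Eif3s1 and Eif3s6ip, now Eif3c, Eif3j1 and Eif3l) and 2 as lower (Eif3s2 and Eif3s5, now Eif3i and Eif3f), and 7 did not pass, beside 14.8% and 12.8% of all genes as higher and lower. Of its 22 tested probes 7 passed as higher and 3 as lower, in the deposited ratios 4 and 0, and brightness-centred 6 and 5. Over all tested probes the shares were 14.2% and 13.6%, deposited 10.8% and 8.98%, and brightness-centred 14.1% and 14.7%. The median over genes was 0.085, but -0.051 in the deposited ratios. Eif3s6ip had 1 probe, at a mean log2 intensity of 16.31, with ratios of 0.31, 0.11, 0.14 and 0.074 and a mean of 0.16 ± 0.11 (SD, n = 4). It turned to -0.080 in the deposited ratios and to -0.17 when brightness-centred, where it passed as lower.

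Eif3s8, a core subunit, had 5 tested probes, of which 2 passed as higher. Its brightest probe had 0.16, 0.24, 0.27 and 0.22, with a mean of 0.22 ± 0.048 (SD, n = 4), and stood at -0.0026 in the deposited ratios and 0.13 when brightness-centred. The probe farthest toward the 5′ side had 0.28, 0.066, 0.12 and 0.29, higher on replicates 1 and 4, and its mean of 0.19 ± 0.11 was 0.21 in the deposited ratios. The other 3 averaged -0.015 to 0.11. Eif3s1, a loosely bound subunit, passed as higher on all 3 probes. Its brightest had 0.32, 0.089, 0.075 and 0.18, and the means were 0.16 ± 0.11, 0.24 ± 0.094 and 0.15 ± 0.074 (SD, n = 4 each), positive under the 3 other scalings. The files place these 3 probes on another chromosome than the RefSeq gene, and the brightest did not pass without replicate 1 (0.11) or without replicate 4 (0.16).

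Eif3s2, a WD-repeat subunit, passed as lower on its 1 probe, with ratios of -0.12, -0.23, -0.26 and -0.11 and a mean of -0.18 ± 0.077 (SD, n = 4). Eif3s5 likewise had -0.33, -0.15, -0.072 and -0.15, with a mean of -0.17 ± 0.11, and did not pass without replicate 1 (-0.12) or without replicate 4 (-0.18). Both turned positive when median-centred, at 0.22 and 0.29. Eif3s10 (now Eif3a), the largest subunit, differed between its probes: the brightest, on the 3′ side, had -0.016, 0.031, 0.078 and 0.0068 and did not pass, at 0.025 ± 0.040, while the 5′ probe had 0.38, 0.16, 0.35 and 0.41 and passed as higher, at 0.33 ± 0.11. Eif3s9 (now Eif3b), a core subunit that binds RNA, also split. Its brightest, 3′ probe averaged 0.096 ± 0.10 and its 5′ probe had -0.53, -0.17, -0.085 and -0.43 and passed as lower, at -0.30 ± 0.21, with a median-centred mean of 0.040.

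The eEF1 genes, which serve aminoacyl-tRNA delivery, all had positive means by their brightest probe, but a median of -0.055 in the deposited ratios. Of the 4 tested genes 2 passed as higher (Eef1b2 and Eef1g), beside 14.8% of all genes. Of 7 tested probes 4 passed as higher and 0 as lower in limma (5 and 0 at an unadjusted p below 0.05), beside 14.2% and 13.6% of all tested probes. The deposited ratios gave 1 and 0 (10.8% and 8.98% of all tested probes) and the brightness-centred ones 1 and 2 (14.1% and 14.7% of all). Over a mean log2 intensity of 16, where the brightest probes of Eef1a1, Eef1b2 and Eef1g lie, 89.6% of all tested probes passed as higher. Eef1b2, the exchange subunit, had ratios of 0.67, 0.12, 0.16 and 0.42, all positive and highest on replicates 1 and 4. Its log2 IgG signals were 16.29, 16.22, 16.16 and 15.86 and its antibody signals 16.96, 16.35, 16.32 and 16.28, of which only the lowest, 16.28, lay below the highest IgG signal. The mean of 0.34 ± 0.25 (SD, n = 4), a 1.27-fold rise, became 0.12 in the deposited and 0.013 in the brightness-centred ratios, and without replicate 4 it did not pass, at 0.32.

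Eef1a1, the carrier of aminoacyl-tRNA and among the most abundant cell proteins, had 2 probes of positive mean. Its brightest had IgG signals of 16.04 to 16.34 and antibody signals of 16.07 to 16.60, with ratios of 0.26, -0.0061, -0.015 and 0.098, and did not pass, at 0.084 ± 0.13 (SD, n = 4). The 3′ probe had 0.35, 0.080, 0.11 and 0.37 and passed as higher, at 0.23 ± 0.15. Both turned negative when brightness-centred, at -0.25 (which passed as lower) and -0.10 (which did not pass), and the deposited ratios were -0.10 and 0.066. Eef1g, a structural subunit, had closely grouped ratios of 0.13, 0.16, 0.17 and 0.14 on its brightest probe (0.15 ± 0.017, passed as higher). That probe turned to -0.099 in the deposited ratios and to -0.18 when brightness-centred, where it passed as lower. Its second probe, far dimmer, also passed as higher, at 0.13, and was positive under the 3 other scalings. Eef1d, the other exchange subunit, did not pass, at 0.11 and 0.081. Eef1a2, the eEF1A gene of muscle and nerve, had 1 probe, not well above background on any array.

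Signal strength moved with these ratios. The median log2 intensity of the family's tested probes was 12.48, beside 8.94 for all tested probes. Over a mean log2 intensity of 16 lay 182 tested probes of the array, of which 89.6% passed as higher, with a median ratio of 0.34. The family had 7 probes there, of which 5 passed as higher and 0 as lower in limma (6 and 0 at an unadjusted p below 0.05), with a median of 0.16, and they belonged to Eef1a1 (2), Eef1b2, Eef1g, Eif1, Eif3s4 and Eif3s6ip. At or below 16 the family's 105 probes gave 16 higher and 28 lower, with a median of -0.025, and 13.7% of all probes passed in each direction. Between 13 and 14, where the 5′ probe of Eif5a and the brightest of Eif4a2 lie, 11.6% of all tested probes passed as higher and 25.2% as lower. The part of signal strength in the single ratios was not tested.

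**Figure D3:**
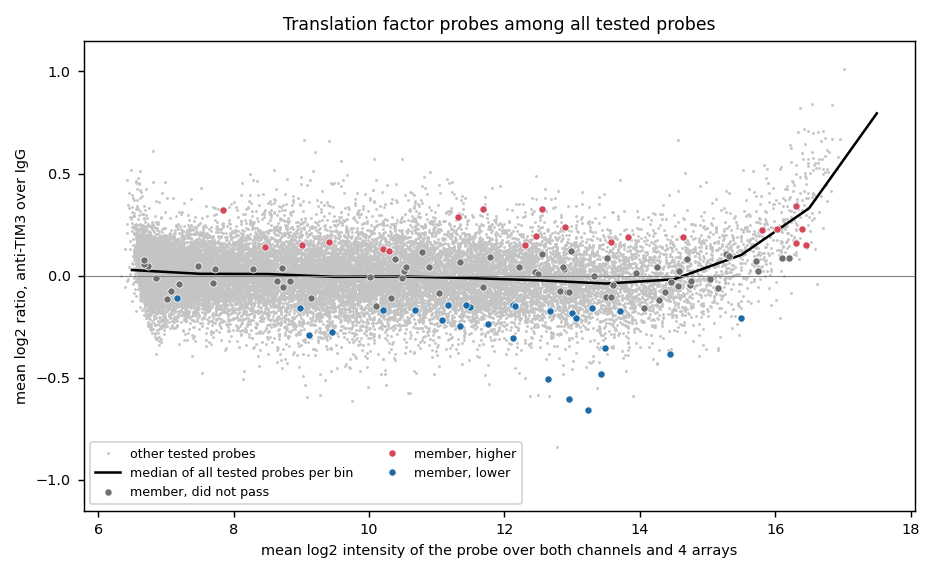
Mean log2 ratio against mean log2 intensity over both channels and the 4 arrays, for all tested probes (grey) and for the family's probes by call, with a line through the median of all probes in bins 1 unit wide. The line stays within 0.04 of 0 up to an intensity of 15 and then climbs to 0.33 between 16 and 17, and most of the family's brightest probes lie on or below it, while the 3 lowest points (Eif5a, Eef2 and Eif4g1) lie between 12 and 14.

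Deposited and loess-adjusted ratios differed at both ends of the brightness range. All 15 of the family's probes over a mean log2 intensity of 15 had a lower deposited ratio, by a median of 0.15 on the log2 scale (difference -0.154). Over the 12 probes up to 8 the differences had both signs, from -0.16 to 0.39, and the largest were on dim probes of Eif2c3 (0.078 to 0.46) and Eif3s7 (0.048 to 0.42). Over the 85 probes between 8 and 15 they ran from -0.099 to 0.080. The falls of Eif5a, Eef2 and Eif4g1 lay in the range where both gave nearly the same value.

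**Figure D4:**
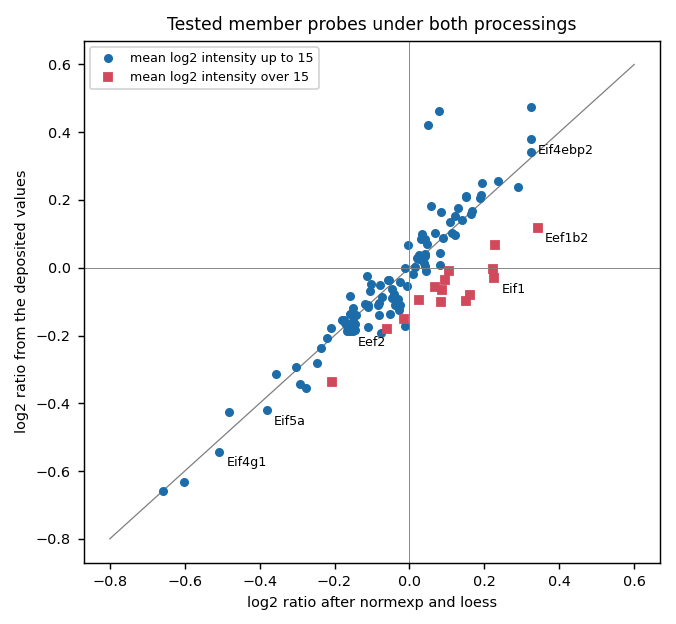
Deposited log2 ratio against the log2 ratio after normexp and loess for the 112 tested probes, with squares for the 15 probes over a mean log2 intensity of 15 and a line of equality. The squares all lie below the line, and among them Eif1 moves from 0.23 to -0.030, whereas the lowest points stay close to the line.

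Probes of 1 gene often disagreed in their call. Among 38 genes with at least 2 tested probes, 6 had all probes called alike, 9 had none called, 22 had some called and some not, and 1 (Eif1) was called in both directions. In 33 of these genes the probes could be ordered along the transcript. The 5′-most probe had the lower ratio in 20 of them (60.6%), and over all 5597 genes of the array that could be ordered in the same way this share was 57.4%. The median size of the difference between both ends was 0.10 in the family and 0.11 in all genes. Which exon or untranslated region each probe lies in was not used here.

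Names in the pattern also covered 5 genes set apart here from the translation factors and their regulators. Eif2c1 to Eif2c4 are now Ago1 to Ago4, Argonaute proteins of small-RNA silencing, and Eef1e1 is a subunit of the aminoacyl-tRNA synthetase complex. Of their 11 tested probes 3 passed as higher and 0 as lower in limma, beside 14.2% and 13.6% of all tested probes. At an unadjusted p below 0.05 the counts were 3 and 1. A 5′ probe of Eif2c1 had 0.31, 0.21, 0.33 and 0.45, at 0.32 ± 0.10 (SD, n = 4), and a middle probe of Eif2c2 had 0.22, 0.33, 0.36 and 0.25, at 0.29 ± 0.066, while the brightest probes of both genes did not pass (0.038 and 0.010). A probe of Eif2c3 passed at 0.14 ± 0.10. Without these names 50 names on 110 probes were left, among them the kinase Eef2k and the eIF4E-binding proteins, which act on translation factors.

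A further 11 genes with factor-type symbols in current RefSeq stood only under other names in the files and were therefore no members by the rule. Of these, 2 passed as higher and 3 as lower by their brightest probe, beside 14.8% and 12.8% of all genes. Higher were Eif4h (0.18), which assists the eIF4A helicase, and Eef1akmt2 (0.25), a methyltransferase of eEF1A, of which Eef1akmt2 passed in the deposited ratios too. Lower were Eif4a3 (-0.17), the exon junction helicase, Eif1ad (-0.23) and Eef1aknmt (-0.19), another methyltransferase of eEF1A, and all 3 were positive when median-centred. A second probe of Eif1ad, about as bright, and a dim second probe of Eef1aknmt did not pass, at -0.042 and -0.067. Eif6, which keeps free large subunits apart from small ones, had 3 probes. The brightest did not pass, at 0.048 ± 0.089 (SD, n = 4), the next passed as lower at -0.22 ± 0.081, turning to 0.090 when median-centred, and the dimmest passed as higher at 0.13 ± 0.031.

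Of 16 termination, recycling and mitochondrial factors 0 passed as higher and 5 as lower in limma, and 1 and 6 at an unadjusted p below 0.05, with a median of -0.054. Over all genes 14.8% passed as higher and 12.8% as lower. This list shares Eif2d with the genes under other names. By their brightest probe the release factor genes Etf1, Gspt1 and Gspt2 stood at -0.20, -0.24 and -0.15, and the mitochondrial factors Tsfm and Mtif2 at -0.26 and -0.16, all positive when median-centred. The other tested probes of these genes did not pass, at 0.027 (Etf1), 0.076 and 0.041 (Gspt1), -0.061 (Gspt2) and -0.073 (Mtif2).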

How the data were processed

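RNA of 4 pairs of B16-F10 cultures was hybridised to 2-colour Agilent arrays. The scanner files deposited by the authors hold spot intensities and a log10 ratio of Cy5 over Cy3 made, per the file headers, with version 9.5.1.1 of Agilent Feature Extraction (9 in the submitters' processing notes), with probe positions on build mm7. The deposited value table was identical to that log10 ratio on all 4 arrays, so its scale and direction are known. The median of that ratio was 0 on each array. In limma 3.58.1 (R 4.3.3) mean intensities were corrected with normexp (offset 50) and loess within arrays, control spots had weight 0, outlier-flagged spots were dropped and spots averaged per probe. Probes with Cy3 or Cy5 well above background on 3 or 4 arrays were tested against 0 (lmFit, eBayes, two-sided, Benjamini-Hochberg). Intensities after loess are log2 values computed from the deposited intensities. All arrays were on 1 slide, and their number limits the precision. Older gene names were updated through accession or symbol with RefSeq (GRCm38.p6), which matched all 55 names. The members and lists were chosen with earlier results of these data known. Named genes were Eif5a, Eef2, the 6 largest calls in each direction with 1 sign on all arrays, genes called in both directions and a set list. The other members are summarised. The fit was tested on simulated data. Alternatives are given in the closing section.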

Additional observations from a re-analysis of the deposited data

Results flagged for a closer look

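In each of 5 of the 112 tested probes, 1 array lay far from the other 3, where chance gives about 1 in 20. For Eef1d (probe starting at 75978097 of build mm7), replicate 3 had a log2 ratio of 0.425 and the others -0.0401 to 0.0233. For Eif1 (100430414), replicate 1 had 0.267 and the others 0.209 to 0.217. For Eif2c3 (125790071), replicate 1 had -0.0435 and the others 0.108 to 0.132. For Eif3s8 (122643748), replicate 1 had -0.116 and the others 0.011 to 0.0233. For Eif4g2 (106988089), replicate 1 had -0.123 and the others -0.0298 to -0.0114. The far array was replicate 1 in 4 of these 5 probes.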

How the results depend on the processing

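Over the whole array 3777 probes passed as higher and 3603 as lower, with the deposited log ratio 2385 lower, with median centring 0 and 0, against a minimum change of 1.2-fold 43 and 13, with channels fitted separately without the pairing (no replicate block) 331 and 254, and leaving out each replicate 2140 to 3516 higher and 2079 to 2738 lower. Of the family's probes 21 and 28 passed, with the deposited ratio 10 and 18, with median centring 0 and 0 (17 and 0 at an unadjusted limma p below 0.05), at 1.2-fold 0 and 1 (0 and 6 unadjusted), with no replicate block 2 and 4, and leaving out each replicate 10 to 17 and 19 to 25. Of its genes 10 passed as higher, 6 with a normexp offset of 10, with the deposited ratio 2, with median centring and at 1.2-fold 0, with no replicate block 2, with trends of intensity and base counts removed (chosen after seeing the data) 5, and leaving out each replicate 6 to 8. Lower were 9, with median centring and at 1.2-fold 0, brightness-centred 16, with no replicate block 2, and leaving out each replicate 8 to 10. Of all tested probes 13.6% passed as lower in the main fit and 14.7% when brightness-centred. Shares of all genes were counted for the main fit only (14.8% higher and 12.8% lower), so nothing is read from the gene counts under other settings. Replicate 4 moved both the family's higher probes (10 without it) and its higher genes (6) by over 1.5 times. The whole array moved likewise, from 3777 to 2140 higher and from 3603 to 2079 lower probes without replicate 4. The median over genes, 0.035, was -0.052 deposited, 0.44 with median centring, -0.021 brightness-centred, 0.0038 with trends removed, 0.0032 with genes as the mean of their probes, and 0.019 to 0.028 leaving out each replicate. Among named genes that passed, sign turned for Eif1 (deposited -0.030, brightness-centred -0.10, passing as lower there), Eif3s8 (deposited -0.0026) and, with median centring, Eif4a2 (0.088), Eif4a1 (0.41), Eif3s2 (0.22) and Eif3s5 (0.29). Among those that did not pass, it turned for Eef1a1 (deposited -0.10, brightness-centred -0.25 and passing as lower there, trends removed -0.045), Eif3s10 (trends removed -0.055), Eif4ebp1 (mean of probes 0.063) and, with median centring, Eef2k (0.076), Eif4ebp1 (0.53), Eif2s1 (0.44) and Eif2b5 (0.20). For Eif5a and Eef2, given with no test, the brightest probe turned to 0.15 and 0.33 with median centring, and their other probes stayed negative. The median of all tested probes was itself 0.15 with median centring. All 23 named values kept direction, and those given with a test kept their call, with outlier spots kept, an intensity-trended prior, no filter on dim probes, and both channels required on all 4 arrays. The cause of these shifts was not tested. Each array pairs both treatments of 1 passage, and the fit without that pairing is the no replicate block fit above. Signal near background limits the dim probes.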
